A study of Mus musculus with 6 samples.

Results

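The kinase cascade of the Hippo pathway that acts on YAP was followed in subcutaneous white adipose tissue (scWAT) through 10 genes taken by their symbols, *Stk3*, *Stk4*, *Sav1*, *Lats1*, *Lats2*, *Mob1a*, *Mob1b*, *Taok1*, *Nf2* and *Wwc1*. They are 10 of the 55401 genes in the count tables. A total of 9 passed the filter on low counts and *Wwc1* did not. Total RNA of scWAT was sequenced from 6 male mice aged 8 weeks and kept at room temperature, each giving 1 library. The 3 control mice, named YT-FF here after the study's methods and WT in the sample labels, carried floxed *Yap* and *Taz* alleles without Cre. The 3 YT-AKO mice (Yapfl/fl/Tazfl/fl;AdipoqCre) carried the same floxed alleles and Cre under the *Adipoq* promoter. The *Adipoq* promoter is active in mature adipocytes, so the other cells of the tissue kept intact alleles, and the libraries hold RNA of all of them. The comparison asks whether the genes that encode the upstream kinases and their adaptors differed when their effectors were deleted in adipocytes.

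The Hippo pathway is a kinase relay that restrains YAP and TAZ. MST1 (*Stk4*) and MST2 (*Stk3*), bound to the scaffold SAV1, phosphorylate LATS1 and LATS2 and their activators MOB1A and MOB1B. The LATS kinases then phosphorylate YAP and TAZ, which are held in the cytoplasm or degraded. TAOK1 activates the MST kinases, and merlin (*Nf2*) and KIBRA (*Wwc1*) bring the cascade to the membrane. The relay is regulated largely through phosphorylation, which mRNA counts do not show. *Lats2* and *Nf2* are themselves known as targets of YAP and TAZ, which act through TEAD factors.

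Promoter sequences, from RefSeq on GRCm38.p6, were matched by symbol for 9 of the 10 genes, and none was matched for *Stk3*. The 250 bases before the RefSeq start site are shown for *Stk4* and *Taok1*, which were called lower, and for *Sav1*, in which the core TEAD motif GGAATG was found. Either strand was searched, and capitals mark the match, which is the reverse complement CATTCC. The *Stk4* window is chr2:164073888-164074137 (plus strand), the *Taok1* window chr11:77607816-77608065 (minus strand) and the *Sav1* window chr12:69987003-69987252 (minus strand).
Stk4: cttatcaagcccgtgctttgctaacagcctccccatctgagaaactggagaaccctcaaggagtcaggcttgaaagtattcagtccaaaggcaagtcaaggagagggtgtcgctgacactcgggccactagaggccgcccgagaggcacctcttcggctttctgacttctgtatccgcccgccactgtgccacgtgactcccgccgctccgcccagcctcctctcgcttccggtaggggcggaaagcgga
Taok1: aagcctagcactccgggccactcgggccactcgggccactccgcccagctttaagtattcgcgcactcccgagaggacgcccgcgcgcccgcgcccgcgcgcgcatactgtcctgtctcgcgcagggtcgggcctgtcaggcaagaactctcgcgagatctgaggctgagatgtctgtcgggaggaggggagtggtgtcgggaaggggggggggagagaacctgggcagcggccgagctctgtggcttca
Sav1: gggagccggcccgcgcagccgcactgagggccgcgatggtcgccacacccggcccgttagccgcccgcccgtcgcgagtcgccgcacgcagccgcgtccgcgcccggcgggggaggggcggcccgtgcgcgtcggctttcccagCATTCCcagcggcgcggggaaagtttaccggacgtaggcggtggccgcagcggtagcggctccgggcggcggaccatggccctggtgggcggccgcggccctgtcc
The RefSeq start site of *Stk4* lies 3816 bases and that of *Lats2* 12265 bases inside the gene as the count files give it, so those windows do not lie before the whole gene. The windows of *Lats1* and *Mob1a* run into exons of the neighbours *Pcmt1* and *Mthfd2* and are not printed. *Mob1a* also held the motif, again as CATTCC. The match began 106 bases before the start site in *Sav1* and 209 bases before it in *Mob1a*. The other 7 windows, those of *Lats1*, *Lats2* and *Nf2* included, held no match. Of all 32851 windows of this length, 12.6% held the motif on either strand, against 2 of the 9 windows here. The windows were rich in CpG, with 37 CpG in *Lats1*, 43 in *Sav1*, 16 in *Stk4* and 14 in *Mob1a*, against a median of 6 over all windows.

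The libraries held 17740987 to 21838493 counted fragments. All 10 genes have more exon bases than the median tested gene (3888), and across all tested genes the log2 fold change fell with gene length (Spearman's rho -0.376, over genes, which are not independent replicates). YT-AKO 2 stood apart from the other libraries, with a TMM factor of 0.777 against 0.954 to 1.16, and without it rho was -0.283. *Adipoq*, *Plin1* and the other 5 adipocyte markers were high in all 6 libraries, with a summed level of 12109 to 17648 CPM in YT-FF and 20687 to 32939 in YT-AKO. *Fabp4* alone held 4072 to 7199 CPM in YT-FF and 9159 to 20229 CPM in YT-AKO. Of the 7, *Fabp4*, *Lipe* and *Pnpla2* were called higher and 0 lower, beside 12.6% and 9.01% of all tested genes. *Adipoq* (log2 fold change 0.43), *Plin1* (0.36), *Cidec* (0.40) and *Lep* (-0.13) were not called (edgeR adjusted p from 0.176 to 0.831). The targeted effectors moved apart, since *Yap1* had 57.1 to 69.1 CPM in YT-FF and 29.0 to 37.7 CPM in the libraries labelled YT-AKO, while *Wwtr1*, the gene of TAZ, had 76.0 to 98.8 and 133 to 175 CPM. The *Wwtr1* counts thus went against the label, whereas the study's immunoblots showed less YAP and TAZ protein in scWAT of YT-AKO mice. These counts cover all exons of a gene and do not show the loss of single exons. YT-AKO therefore stands for the libraries labelled YT-AKO throughout, and every direction rests on those labels. Of 7 markers of beige and brown adipocytes, 6 were called higher, beside 12.6% of all tested genes, and *Ppargc1a* was not (log2 fold change 0.02, edgeR adjusted p = 0.965). Their summed level was 163 to 233 CPM in YT-FF and 1656 to 3613 CPM in YT-AKO. Muscle markers reached 3141 CPM in YT-AKO 1 against 118 to 450 in the others. The summed level of 7 endothelial markers was lower, at 658 to 672 CPM in YT-FF and 531 to 637 CPM in YT-AKO. The single markers were split, 4 with a log2 fold change below 0 and 3 above it (*Emcn* 0.63, *Vwf* 0.46 and *Tie1* 0.13). Only *Kdr* was called (log2 fold change -0.78, edgeR adjusted p = 0.0358). The part of these shifts in the results on the cascade was not tested.

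The levels of the cascade genes were first ordered per length, in TPM, which are counts scaled to gene length and then to the library. In YT-FF, *Mob1a* was the most abundant at 168 ± 13.1 TPM (mean ± SD, n = 3), followed by *Stk4* at 92.0 ± 14.9 and *Nf2* at 48.5 ± 2.49 TPM. *Sav1* (40.5 ± 1.93 TPM), *Lats1* (36.4 ± 4.51) and *Taok1* (34.5 ± 0.343) came next, and neighbours among these 3 overlapped between libraries. *Lats2* followed at 22.8 ± 1.45, *Mob1b* at 12.9 ± 0.688 and *Stk3* at 12.0 ± 0.328 TPM. *Wwc1* stood last at 0.354 ± 0.175 TPM. The order depended on exon bases shared with other genes, in which the authors' counting assigns no fragment, and which are 42.4% of *Lats2* and 25.4% of *Sav1*. Over unshared exon bases only, a setting added after the data were seen, *Sav1* (54.3 ± 2.58) stood above *Nf2* without overlap, and *Lats2* (39.5 ± 2.51) stood above *Lats1* and *Taok1*, overlapping *Lats1*. MST1 and MOB1A transcripts thus exceeded those of their paralogs in the 3 control libraries. In YT-AKO, *Mob1a* (77.8 ± 33.0 TPM) again came first and did not overlap *Stk4*, the next in the order. *Wwc1* (0.163 ± 0.150 TPM) came last, below *Stk3* without overlap, and each of the 8 genes in between overlapped its neighbour, with either exon length. On this scale 9 of the 9 tested cascade genes and 54.5% of all tested genes were lower in every YT-AKO library than in every YT-FF library (7.52% were higher), and the median log2 ratio of mean TPM was -0.66 over all tested genes and -1.11 over the 9 tested cascade genes. TPM was used for the order of levels, and TMM-normalized CPM, which are counts scaled to the library only, for the comparison of genotypes.

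Of the 9 tested genes, 3 had lower levels in libraries labelled YT-AKO, and 0 had higher levels, at an adjusted p under 0.05 (edgeR quasi-likelihood test, with p-values of 16807 genes adjusted by Benjamini-Hochberg). The 3 were *Stk4*, *Lats1* and *Taok1*, each a kinase of the relay. Over all tested genes 9.01% were called lower and 12.6% higher. At an unadjusted p under 0.05, 5 of the 9 were lower and 0 higher, beside 18.6% and 22.2% of all tested genes. The estimates of all 9 lay below 0 with a median of -0.52 on the log2 scale, beside -0.02 over all tested genes. DESeq2, the tool of the study, and limma-voom also gave 3 lower and 0 higher. Of all genes, DESeq2 called 11.8% lower and 15.1% higher, and limma-voom 9.8% and 11.8%. Scaling by library totals alone, which shifted the median of all tested genes to -0.34, also gave 3 and 0, beside 16.8% and 6.77% of all genes. In CPM, 6 of the 9 genes were lower in every YT-AKO library than in every YT-FF library, a pattern found in 25.8% of all tested genes, while 25.7% lay above without overlap. In bulk tissue, fewer cells of a type and less RNA per cell cannot be told apart.

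**Figure D1:**
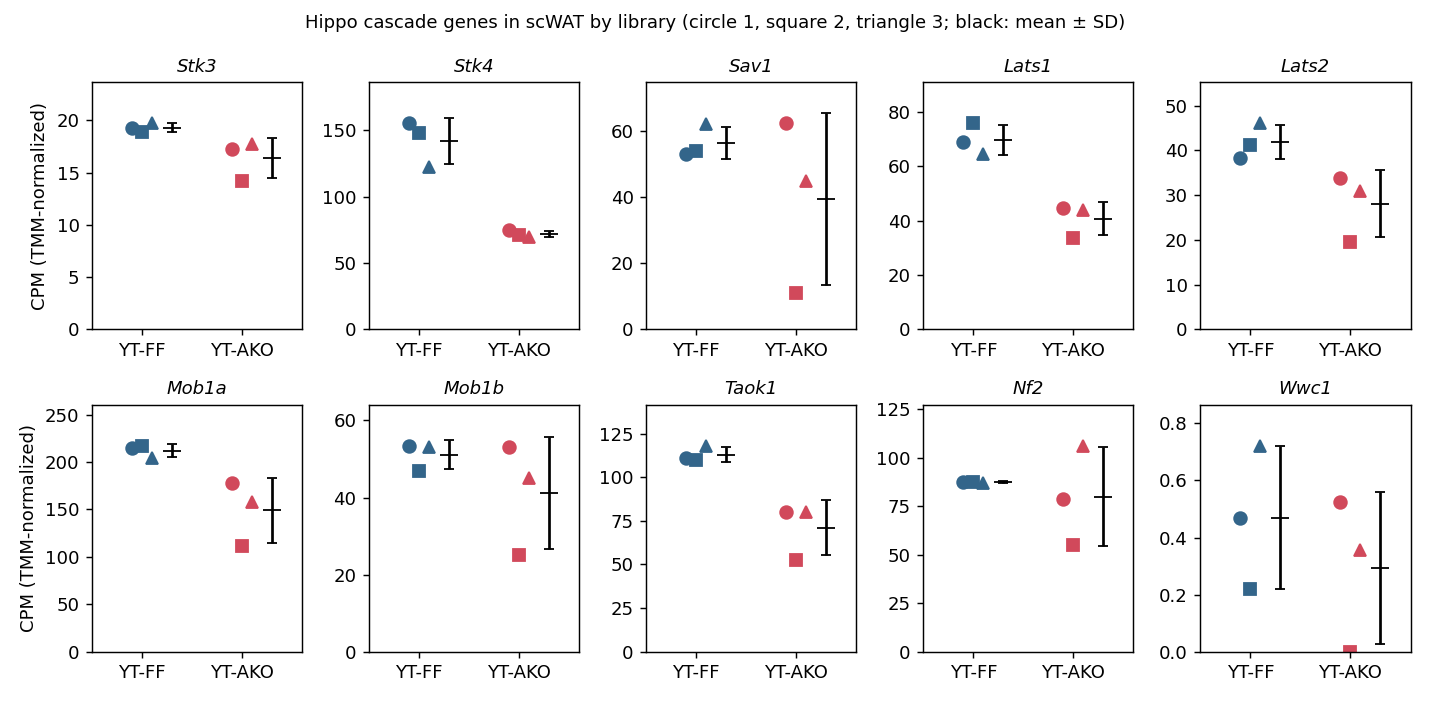
Level of each cascade gene in the 6 scWAT libraries. The y axis gives TMM-normalized CPM from 0, the x axis the genotype, symbols the library number, and black bars the mean ± SD of 3 libraries. *Stk3*, *Stk4*, *Lats1*, *Lats2*, *Mob1a* and *Taok1* are lower in YT-AKO without overlap between the genotypes, as are 25.8% of all tested genes. YT-AKO 2 (square) is the lowest of the 6 libraries in every panel except *Stk4*.

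*Stk4*, which encodes MST1 (ENSMUSG00000018209, chromosome 2, 164070322 to 164155524 of mm10), fell most, and 9.59% of all tested genes had a lower or equal log2 fold change. Its level was 155, 148 and 122 CPM in YT-FF 1 to 3 and 74.4, 70.9 and 69.6 CPM in YT-AKO 1 to 3. The 3 YT-AKO libraries were close to each other and all below the lowest YT-FF library. The log2 fold change was -0.98 (standard error 0.156, 95% interval -1.34 to -0.62, edgeR adjusted p = 0.0177), which leaves 50.7% of the control level. *Stk3*, which encodes the paralog MST2 (ENSMUSG00000022329, chromosome 15, 34875496 to 35178921), had 19.3, 18.9 and 19.7 CPM in YT-FF and 17.3, 14.2 and 17.7 CPM in YT-AKO. The groups did not overlap, but the difference was small and did not pass the test (log2 fold change -0.24, 95% interval -0.63 to 0.16, edgeR adjusted p = 0.323), and was -0.14 without YT-AKO 2.

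MST1 is known to be abundant in lymphocytes, and subcutaneous fat can hold a lymph node, so lymphocyte markers are given beside *Stk4*. Of 7 B cell markers, 4 were called lower in YT-AKO and 0 higher, beside 9.01% and 12.6% of all tested genes. The others, *Pax5* (log2 fold change -0.86, edgeR adjusted p = 0.141), *Cd79a* (-0.14, adjusted p = 0.623) and *Cd79b* (-0.08, adjusted p = 0.867), were not called. The summed level of the 7 markers was 1257, 1289 and 1093 CPM in YT-FF 1 to 3 and 676, 986 and 646 CPM in YT-AKO 1 to 3. These sums did not overlap, and 25.8% of single tested genes were likewise lower without overlap. Of 7 T cell markers, 0 were called (lowest edgeR adjusted p = 0.174, for *Cd3d*), and their sum ran from 320 to 493 CPM in YT-FF and from 293 to 689 CPM in YT-AKO. No B or T cell marker was at 0 in all libraries. YT-AKO 2 held the highest B cell sum of its group and the highest T cell sum of all libraries, and its *Stk4* level of 70.9 CPM lay between those of the other YT-AKO libraries. The part of lymphocytes in the fall of *Stk4* was not tested.

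**Figure D2:**
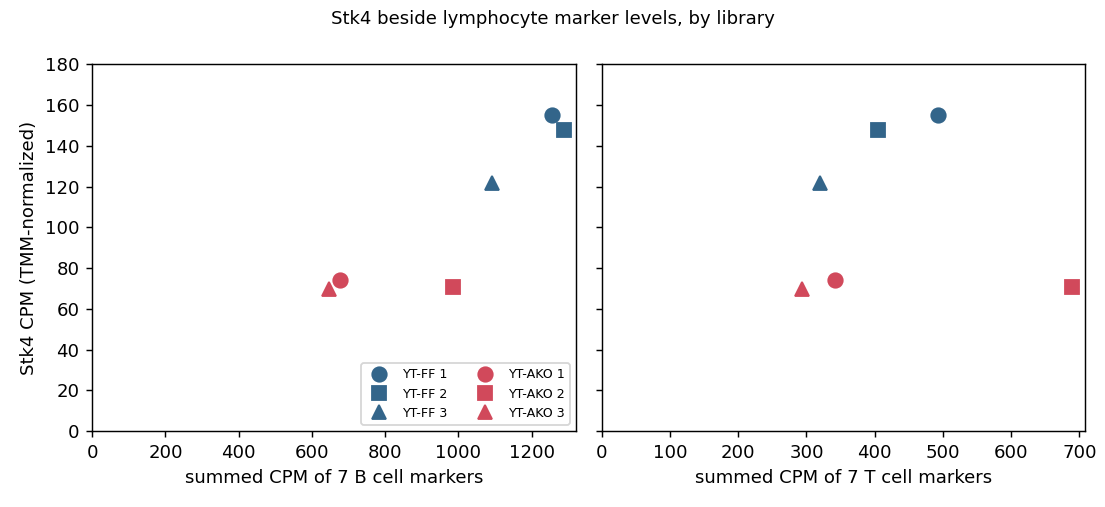
Level of *Stk4* (y axis, TMM-normalized CPM) against the summed level of 7 B cell markers (left x axis, CPM) and 7 T cell markers (right x axis, CPM), 1 point per library. The 3 YT-AKO points lie at 69.6 to 74.4 CPM of *Stk4* over B cell sums of 646 to 986 and T cell sums of 293 to 689.

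*Lats1*, a kinase that phosphorylates YAP and TAZ (ENSMUSG00000040021, chromosome 10, 7681214 to 7716460), had 68.8, 75.7 and 64.6 CPM in YT-FF and 44.7, 33.6 and 43.7 CPM in YT-AKO. All YT-AKO libraries lay below all YT-FF libraries. It fell by 0.78 on the log2 scale (standard error 0.168, 95% interval -1.17 to -0.39, edgeR adjusted p = 0.0243), to 58.3% of the control level. *Lats2*, its paralog (ENSMUSG00000021959, chromosome 14, 57689662 to 57758388), had 38.3, 41.3 and 46.0 CPM in YT-FF and 33.8, 19.5 and 31.0 CPM in YT-AKO. The groups did not overlap and YT-AKO 2 was the lowest. Its log2 fold change of -0.57 (95% interval -1.09 to -0.05) missed the threshold after adjustment (edgeR adjusted p = 0.0962, unadjusted p = 0.0344), and was -0.37 without YT-AKO 2. Of its exon bases, 42.4% are shared with Gm49361, which had a count of 0 in every library. Fragments in that stretch were left out by the authors' counting, so the *Lats2* level rests on the rest of the gene.

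The adaptors gave a mixed picture. *Mob1a*, which encodes an activator of the LATS kinases (ENSMUSG00000043131, chromosome 6, 83326016 to 83343776), had 215, 217 and 204 CPM in YT-FF and 178, 111 and 158 CPM in YT-AKO. The groups did not overlap, and the log2 fold change of -0.51 (95% interval -0.98 to -0.05) did not pass the test after adjustment (edgeR adjusted p = 0.0979) and was -0.34 without YT-AKO 2. *Mob1b* (ENSMUSG00000006262, chromosome 5, 88720855 to 88764220), its paralog, had 53.4, 46.8 and 53.1 CPM in YT-FF and 53.2, 25.0 and 45.1 CPM in YT-AKO. YT-AKO 1 and YT-FF 1 were alike, and only YT-AKO 2 stood well below the controls (log2 fold change -0.31, 95% interval -0.93 to 0.30, edgeR adjusted p = 0.399). Without YT-AKO 2 its log2 fold change was -0.06.

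*Sav1*, which encodes the scaffold of the MST kinases (ENSMUSG00000021067, chromosome 12, 69965012 to 69987002), had the largest spread within YT-AKO relative to its level among the tested genes of the cascade. It had 52.9, 54.0 and 61.9 CPM in YT-FF and 62.2, 11.1 and 44.7 CPM in YT-AKO. YT-AKO 1 was above every control and YT-AKO 2 was far below every other library, with 189 counts against 756 to 1240. The log2 fold change was -0.52 with all libraries (95% interval -1.69 to 0.66, edgeR adjusted p = 0.468) and -0.08 without YT-AKO 2. Of the exon bases of *Sav1*, 25.4% are shared with *Atl1*, for which YT-FF libraries held 69 to 76 counts and YT-AKO libraries 34 to 37, and fragments there were likewise left out.

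Of the upstream inputs, *Taok1*, a kinase that activates MST1 and MST2 (ENSMUSG00000017291, chromosome 11, 77529162 to 77607815), had 111, 110 and 118 CPM in YT-FF and 80.2, 52.7 and 80.3 CPM in YT-AKO. The groups did not overlap, and the gene fell by 0.67 on the log2 scale (standard error 0.195, 95% interval -1.12 to -0.22, edgeR adjusted p = 0.0463), close to the threshold, to 62.9% of the control level. *Nf2* (ENSMUSG00000009073, chromosome 11, 4765845 to 4849536), which encodes merlin, had 87.3, 87.6 and 86.7 CPM in YT-FF and 78.6, 55.1 and 106 CPM in YT-AKO. The controls were nearly equal, while the YT-AKO libraries lay on either side of them (log2 fold change -0.13, 95% interval -0.67 to 0.41, edgeR adjusted p = 0.702).

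*Wwc1*, which encodes KIBRA (ENSMUSG00000018849, chromosome 11, 35838400 to 35980527), was barely detected. The YT-FF libraries held 11, 5 and 14 counts of it and the YT-AKO libraries 9, 0 and 6. The count of 0 in YT-AKO 2 allows up to 3 counts, or 0.177 TMM-normalized CPM, which covers counting error only. The groups overlapped, and in the edgeR fit with no filter on low counts the 95% interval of its log2 fold change ran from -2.71 to 1.39 (estimate -0.66, adjusted p = 0.668). KIBRA is known from epithelium and kidney among other tissues, and of 7 epithelial markers *Krt5* was at 0 in every library and the sum ran from 4.02 to 5.81 CPM.

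The fold changes depended on gene length and on YT-AKO 2. The median deviation of the 9 genes from their mean over all libraries, in log2 CPM, was 0.27 to 0.30 in YT-FF, -0.03 and -0.12 in YT-AKO 1 and 3, and -0.66 in YT-AKO 2. For each library, a spline on log2 gene length was fitted to the deviation of log2 CPM from each gene's mean over the libraries. It entered the edgeR fit as an offset, which also takes up any genotype difference that follows gene length. With this spline, *Stk4* (log2 fold change -0.77, edgeR adjusted p = 0.0242) and *Lats1* (-0.48, adjusted p = 0.0470) were still lower. *Taok1*, with 12421 exon bases, went to -0.18 (edgeR adjusted p = 0.398). *Mob1b* and *Nf2* turned to 0.21 and 0.13, and neither passed the test. This left 2 of 9 genes lower, beside 4.54% of all tested genes, and a median of -0.31. Without YT-AKO 2, *Stk4* (-0.98, edgeR adjusted p = 0.0035), *Lats1* (-0.66, adjusted p = 0.0071) and *Taok1* (-0.50, adjusted p = 0.0144) were called, beside 14.0% of all tested genes. With the spline and without YT-AKO 2, a setting added after the data were seen, *Stk4* (-0.84) and *Lats1* (-0.44) were lower, beside 8.47% of all tested genes. Leaving out YT-FF 1 or YT-FF 2 ended all 3 calls (edgeR adjusted p from 0.110 to 0.149), while the log2 fold changes were -0.91 and -0.96 for *Stk4*, -0.79 and -0.72 for *Lats1*, and -0.68 and -0.70 for *Taok1*. Over all tested genes, edgeR then called 0 without YT-FF 1, where 2612 were higher and 2053 lower at an unadjusted p under 0.05 (0 and 3 of the 9 cascade genes, beside 11.9% of all tested genes lower), and 2 without YT-FF 2. No other tool was run without these libraries. Without YT-FF 3, only *Stk4* was called, beside 3.02% of all tested genes lower. Without YT-AKO 1 or YT-AKO 3, *Stk4* and *Lats1* were called, beside 8.24% and 5.12%, with *Taok1* at an edgeR adjusted p of 0.0511 and 0.0594.

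**Figure D3:**
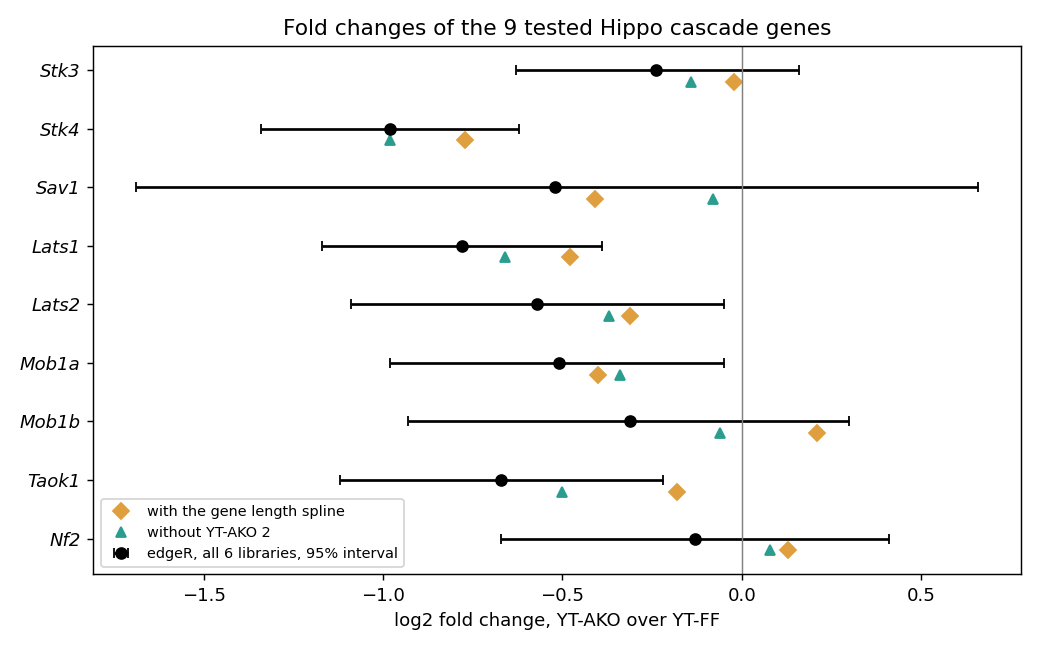
Log2 fold change (x axis, YT-AKO over YT-FF) of the 9 tested cascade genes. Black points and bars are the edgeR estimate and its 95% interval over 6 libraries, diamonds the estimate with the gene length spline and triangles the estimate without YT-AKO 2. *Stk4* stays between -0.98 and -0.77, while *Taok1* moves from -0.67 to -0.18 with the spline.

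The 3 pairs of paralogs were then compared within each library by the ratio of their counts per kilobase, which does not depend on how libraries are scaled. Set against *Stk4*, *Stk3* stood at a ratio of 0.119, 0.123 and 0.155 in the YT-FF libraries and of 0.223, 0.191 and 0.243 in the YT-AKO libraries. The share of MST2 was higher in each YT-AKO library than in any control. The log2 ratio went from -2.93 ± 0.208 to -2.20 ± 0.176 (mean ± SD, n = 3), a difference of 0.73 (two-sided exact permutation test, p = 0.1, the smallest that 3 libraries against 3 allow, and 0.3 after adjustment over the 3 pairs). The ratio of *Lats1* to *Lats2* was 1.34 to 1.75 in the YT-FF libraries and 1.26 to 1.65 in the YT-AKO libraries, which overlapped (difference -0.18 on the log2 scale, exact permutation p = 0.3, adjusted p = 0.4). Over unshared exon bases only, the same ratios were 0.773 to 1.01 and 0.727 to 0.949, with the same difference, so which of the pair is more abundant depends on the length used. The ratio of *Mob1a* to *Mob1b* was 12.0 to 14.6 in the YT-FF libraries and 10.5 to 13.9 in the YT-AKO libraries, again with overlap (difference -0.16, exact permutation p = 0.4, adjusted p = 0.4). *Mob1b* is the longest gene of the cascade with 15033 exon bases against 4794 in *Mob1a*, and with the gene length spline the difference was -0.61 (exact permutation p = 0.1). The design cannot reach p under 0.05 for any of these ratios.

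**Figure D4:**
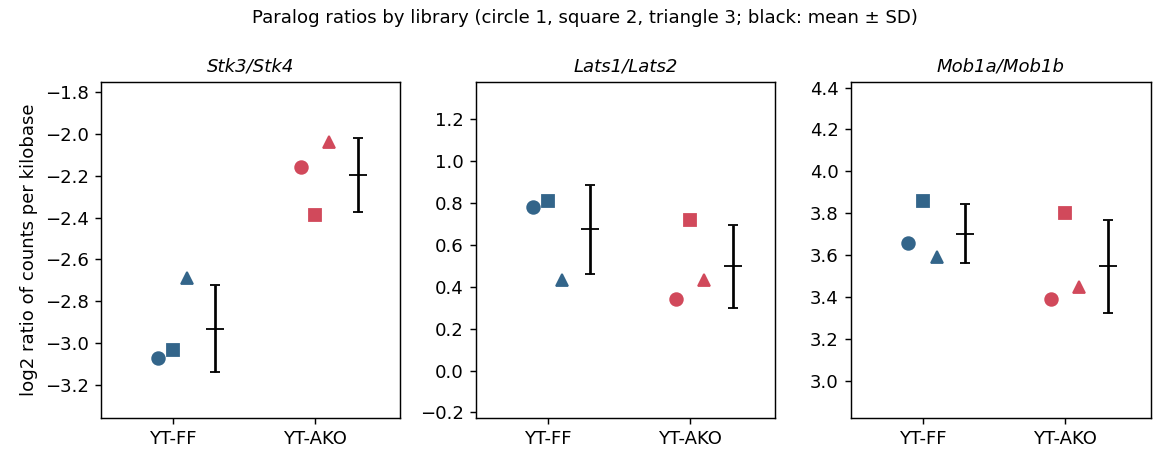
Log2 ratio of counts per kilobase (y axis, each panel spanning the same range around its data) of 3 paralog pairs by genotype (x axis), 1 symbol per library, black bars the mean ± SD of 3 libraries. The *Stk3*/*Stk4* ratio is separate between genotypes (-3.07 to -2.69 against -2.39 to -2.04), and the other pairs overlap.

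The cascade was set beside 62 other genes of the pathway in 4 lists, all of which passed the filter. Of these, 12 were lower and 3 higher at an edgeR adjusted p under 0.05, beside 9.01% and 12.6% of all tested genes, and their median log2 fold change was -0.28. Of the 11 parallel kinases, which act beside the MST and LATS kinases, 3 were lower and 1 higher (median -0.54). *Map4k2* and *Map4k3*, of the MAP4K family that can phosphorylate LATS, fell by 0.92 and 0.85 on the log2 scale. *Tnik*, of the same family, fell from 13.7 to 23.7 CPM in YT-FF to 8.69 to 10.3 CPM in YT-AKO (edgeR adjusted p = 0.0298). *Stk38l*, which encodes the LATS-related kinase NDR2, rose from 24.6 to 27.0 CPM in YT-FF to 36.8 to 42.2 CPM in YT-AKO, with no overlap (log2 fold change 0.65, edgeR adjusted p = 0.0256).

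Of the 19 upstream regulators, 6 were lower and 1 higher (median -0.58), beside 9.01% and 12.6% of all tested genes. *Amotl2*, an angiomotin that binds YAP and is itself known as a YAP target, had 170, 275 and 318 CPM in YT-FF and 79.0, 51.1 and 107 CPM in YT-AKO. It fell by 1.68 on the log2 scale (standard error 0.328, edgeR adjusted p = 0.0205). *Ptpn14*, a phosphatase that binds YAP, fell by 0.97, *Rassf2* by 0.98 and *Rassf5*, known from lymphocyte adhesion, by 0.95 on the log2 scale. *Mob2*, which encodes a MOB protein that binds the NDR kinases, rose with a log2 fold change of 1.13 (edgeR adjusted p = 0.0304), and YT-AKO 2 was the highest library at 111 CPM against 54.6 and 61.3. The 20 genes of the STRIPAK phosphatase complex and other inhibitors of the kinases had 3 lower and 0 higher (median -0.19), beside the same shares of all tested genes. *Strip2*, a STRIPAK subunit, had 34.5, 30.5 and 30.9 CPM in YT-FF and 10.4, 4.72 and 10.3 CPM in YT-AKO, and fell by 1.91 on the log2 scale (standard error 0.303, edgeR adjusted p = 0.0177). *Stk26* and *Strn* fell by 0.98 and 0.77. Of the 12 genes of YAP and TAZ retention and turnover, 0 were lower and 1 was higher (median -0.06), again beside those shares. The higher gene was *Ywhah*, of the family that holds phosphorylated YAP in the cytoplasm (log2 fold change 0.49, edgeR adjusted p = 0.0444).

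With the gene length spline, 5 of these 62 genes were lower and 3 higher, beside 4.54% and 10.1% of all tested genes. Without YT-AKO 2, 17 were lower and 6 higher, beside 14.0% and 16.9%. Among the effectors, *Yap1* was called lower and *Wwtr1* higher, and the *Tead* genes and *Vgll4* were not called.

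**Figure D5:**
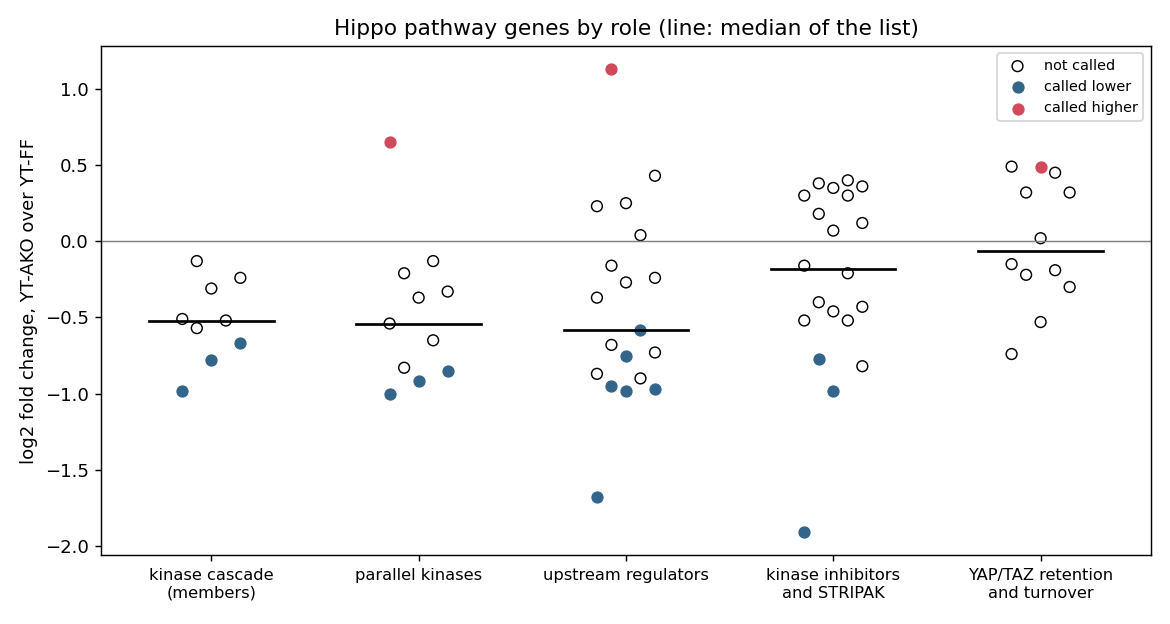
Log2 fold change (y axis, YT-AKO over YT-FF) of the 9 tested cascade genes and of 62 other Hippo pathway genes, by role (x axis). Filled points passed an adjusted p under 0.05 and lines give each list's median, which runs from -0.58 for the upstream regulators to -0.06 for YAP and TAZ retention and turnover.

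As a description, each cascade gene was paired with the gene of the 4 lists whose log2 CPM was most like its own over the 6 libraries, which share their scaling, their length trend and the 2 genotypes. *Stk4* was most like *Stk26* (Pearson's r = 0.982), *Lats1* like *Map4k3* (0.992), *Taok1* like *Itch* (0.986), *Lats2* like *Map4k5* (0.99) and *Stk3* like *Stk24* (0.987). *Mob1a* was most like *Itch* (0.991), *Mob1b* like *Fbxw11* (0.987), *Nf2* like *Csnk1e* (0.96) and *Sav1* like *Fbxw11*, with an r that rounds to 1. Among the members, *Stk4* and *Nf2* were the least alike (r = 0.294), and *Sav1* and *Mob1b*, both low in YT-AKO 2, were the most alike (r = 0.988).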

How the data were processed

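The authors isolated total RNA from scWAT, sequenced paired ends, aligned them with HISAT2 to the mouse build mm10 (GRCm38) and counted fragments on exons with featureCounts v2.0.1 and GENCODE vM25. The deposited values are raw counts per gene, unstranded, without multi-mapping fragments or those overlapping several genes. Of 55401 genes, 55141 were matched to a symbol. The cascade genes and the gene lists were chosen with earlier results of these data known. Named pathway genes are, per list, the called genes with a mean of at least 1 CPM, at most the 4 largest fold changes in each direction.

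Counts were analysed with edgeR 4.0.16 in R 4.3.3 (TMM, filterByExpr with a minimum count of 10 and total of 15, quasi-likelihood test, genotype only), which was tested on simulated data. Standard errors are the fold change over the root of F. TPM used summed exon lengths. DESeq2 1.42.0, limma 3.58.1, other scalings and filters, a gene length spline (6 degrees of freedom), a replicate block and each library left out were the alternatives, and the spline without YT-AKO 2 and the length over unshared exon bases were added after the data were seen. Coordinates follow the files. Intervals are those of the edgeR fit and include the spread between mice, whereas the limit on a count of 0 covers counting error only. Libraries are from separate mice.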

Additional observations from a re-analysis of the deposited data

How the results depend on the processing

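The 3 members called lower stayed 3 with DESeq2, limma-voom, RLE, upper-quartile and library-total scaling and either filter, and no setting called a member higher. Of all genes, DESeq2 called 11.8% lower, limma-voom 9.8%, RLE 9.45%, upper-quartile 9.96% and library-total scaling 16.8%. The share was 5.86% with no filter on low counts and 12% with at least 10 counts in every library. With the replicate number as a block, 0 members were called (0 also with the block and the length spline together), with 4 and 2 lower at an unadjusted p under 0.05, beside 16.1% and 11.6% of all tested genes. With the block, the log2 fold changes of *Stk4*, *Lats1* and *Taok1* were -0.97, -0.79 and -0.69 (edgeR adjusted p = 0.0589, 0.0701 and 0.0824). Over all genes the block left 24 higher and 9 lower. The labels do not say whether the shared numbers pair the mice. Correlations of same-numbered libraries were 0.126, -0.118 and -0.0893, and those of differently numbered libraries ran from -0.14 to 0.16. These values cannot decide whether the mice were paired. With each library left out, 0 to 3 members were called lower and 0 to 0 higher, beside 0% to 14.0% and 0% to 16.9% of all genes. The median log2 fold change of the members then ran from -0.72 to -0.34. Library totals alone moved the median of all genes to -0.34 and that of the members to -0.81. The spline without YT-AKO 2 gave a member median of -0.11.

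The calls among the other 62 genes were 1 higher and 19 lower with library totals, 0 and 0 with the block, alone or with the spline, 5 lower with the spline, and 5 higher and 7 lower with the spline without YT-AKO 2. With each library left out, the calls among the 62 genes ran from 0 to 6 higher and from 0 to 17 lower, beside 0% to 16.9% and 0% to 14.0% of all genes. *Nf2* and *Mob1b* changed sign with the spline (0.13 and 0.21), with the spline and block (0.10 and 0.19) and with the spline without YT-AKO 2 (0.27 and 0.38), where *Stk3* (0.01) and *Sav1* (0.02) also did. With each library left out *Nf2* ran from -0.38 to 0.08, the latter without YT-AKO 2. The cause was not tested. The difference in *Mob1a*/*Mob1b* went from -0.16 to -0.61 with the spline. The ratio *Stk3*/*Stk4* differed by 0.65 to 0.85 with each library left out, 0.75 with the spline, and had p = 0.25 with libraries paired by number (exact sign permutation, replicate block), the smallest that 3 pairs allow. The median log2 ratio of mean levels over the 10 genes was -1.12 in TPM and -0.54 in TMM-normalized counts per kilobase.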
